A study of Mus musculus with 12 samples.

Results

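Macrophages of the normal brain were compared with a blood macrophage population of normal mice, on 2 of the 12 arrays of the series, chosen by their labels (Normal Brain Macrophage and Normal Blood Macrophage Low). The comparison asks how myeloid cells that live in the brain differ from circulating ones in the absence of a tumor. Every value below is either a log2 level, which is the log2 array signal of a gene, or a log2 difference, which is the level on the brain macrophage (MP) array minus that on the blood macrophage low array. Each population had 1 array, so no spread between replicates exists, no difference could be tested, and the number of arrays limits the precision of every value.

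The series measured flow-sorted cells of mouse brain and blood on Affymetrix Mouse Gene ST arrays, with 8 arrays from mice bearing GL261 gliomas and 4 from normal mice. Both arrays compared here are labelled C57BL/6 and normal, 1 from brain and 1 from blood. The study describes MP by a CD11b+/CD45high gate and microglia (MG) by a CD11b+/CD45low gate, whereas what high and low mean for blood macrophages is not given in the sources used here. The growth protocol of all 12 samples, the normal ones included, gives mice of 7 weeks implanted with GL261 and 2 weeks of growth, so the labels do not settle the age of the normal mice at collection. How many mice were pooled and whether brains were flushed of blood are likewise not given in the sources used here.

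Most brain macrophages are MG, which settle in the parenchyma before birth. A smaller population, the border-associated macrophages, lines vessels, meninges and choroid plexus and takes up proteins and debris from the fluid around them through scavenger receptors. Blood holds classical monocytes, which enter inflamed tissue, and patrolling monocytes, which crawl along the vessel wall, beside the far more abundant neutrophils that share CD11b with them.

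Most olfactory receptor genes were assumed to be silent in these cells. The 95th percentile of these 1027 genes was taken as the background of an array. It was a log2 level of 9.07 on the brain MP array and 9.41 on the blood macrophage low array. Of 19938 genes, 36.3% lay above background in brain MP and 26.3% in blood macrophage low cells, within the range of 11.2% to 39.1% over the 12 arrays. Where the dimmer array was not above background, the fold was computed against the background level there and is given as at least that value, with no fold where it would be under 1. Across all genes the log2 levels of both arrays had a Pearson's r of 0.826, and over the 7751 genes above background on 1 or both arrays r was 0.571, where genes are not independent replicates. At 2-fold or more, 1229 genes (6.16%) were higher and 697 (3.5%) lower in brain MP, around a median log2 difference of -0.19. Both shares are the base for the list counts below. Among the 7751 genes, 869 were higher (11.2%) and 316 lower (4.08%). The dim array was not above background for 746 of the 869 and for 170 of the 316, so most of these differences are bounds. Cyclic loess normalization gave 1622 higher and 410 lower genes, which moved the share of higher genes from 63.8% to 79.8%. At that threshold 0.389% of olfactory receptor genes were higher and 4.09% lower, and the SD of their log2 differences was 0.39. In bulk RNA of sorted cells, fewer cells of a type and less RNA per cell cannot be told apart.

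Both arrays carried the genes of the CD11b and CD45 gate and other myeloid genes. Itgam, which encodes CD11b, was at a log2 level of 12.23 in brain MP and 12.32 in blood macrophage low cells. Ptprc, which encodes CD45, was at 12.01 and 12.89, 1.84-fold lower in brain MP. Csf1r, the receptor for the growth factors that macrophages need to survive, was at 12.70 and 12.21. Adgre1, which encodes the macrophage antigen F4/80, was at 11.69 and 10.64, 2.08-fold higher in brain MP. These genes were above background on both arrays and differed by little more than 2-fold at most. Ptprc, Itgam and Adgre1 were added to the named genes after their values were seen.

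Border-associated macrophage genes were mostly higher in brain MP. Of 24 measured markers, 20 were higher in brain MP by 2-fold or more and 0 lower, with a median log2 difference of 2.77 against -0.19 over all genes, and 21 lay above background in brain MP against 2 in blood macrophage low cells. With values below background raised to it, which makes the differences bounds, the median was 1.2. Lyve1, a hyaluronan receptor of perivascular and meningeal macrophages, was at a log2 level of 13.28 in brain MP and 7.47 in blood macrophage low cells, at least 14.6-fold higher. Mrc1, the mannose receptor, was at 12.20 and 6.80, at least 6.89-fold higher. Cd163, which clears complexes of hemoglobin and haptoglobin, was at 11.54 and 7.31, at least 4.37-fold higher. All 3 were below background in the blood cells. Stab1, a clearance receptor, was at least 7.04-fold higher, at 12.23 and 8.02, and Siglec1, a receptor for sialylated ligands, at least 3.52-fold. The lectin Mgl2 was at least 2.89-fold higher and Dab2, an endocytic adaptor, at least 5.55-fold, although the other probe set of Dab2 had a log2 difference of -0.27. Cbr2, a carbonyl reductase, was at least 3.14-fold higher. The transcription factor Maf, at 7.78 in the blood cells, was higher by at least 1.59 on the log2 scale. F13a1, which encodes a subunit of coagulation factor XIII, was above background on both arrays at 12.06 and 10.77, 2.43-fold higher in brain MP. Cd36, a receptor for lipids, was the list's lowest member at 10.55 and 11.54, 1.99-fold lower.

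MG genes were present in brain MP as well. Measured MG markers numbered 18, with 14 higher at 2-fold or more, 0 lower and a median of 2.31 (1.05 with dim values raised to background), and 17 lay above background in brain MP against 4 in blood macrophage low cells. The purinergic receptor P2ry12, which guides MG processes to sites of injury, was at a log2 level of 10.54 in brain MP and 7.09 in blood macrophage low cells, at least 2.18-fold higher. Tmem119, a membrane protein of MG, was at 11.29 and 7.58, at least 3.67-fold higher. Sall1, a transcription factor that maintains MG identity, was at 10.51 and 8.44, at least 2.15-fold higher. On the normal MG array P2ry12 was at 12.63 and Tmem119 at 13.04, so both genes were lower on the MP array than on the MG array of the same tissue. Lyve1 and Cd163 ran the other way, at 8.39 and 8.87 on normal MG, both below background there. Cx3cr1, the fractalkine receptor that MG share with patrolling monocytes, was at 12.19 in brain MP and 11.28 in blood macrophage low cells, 1.88-fold higher. How much of the MG signal came from MG within the MP gate was not tested.

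**Figure D1:**
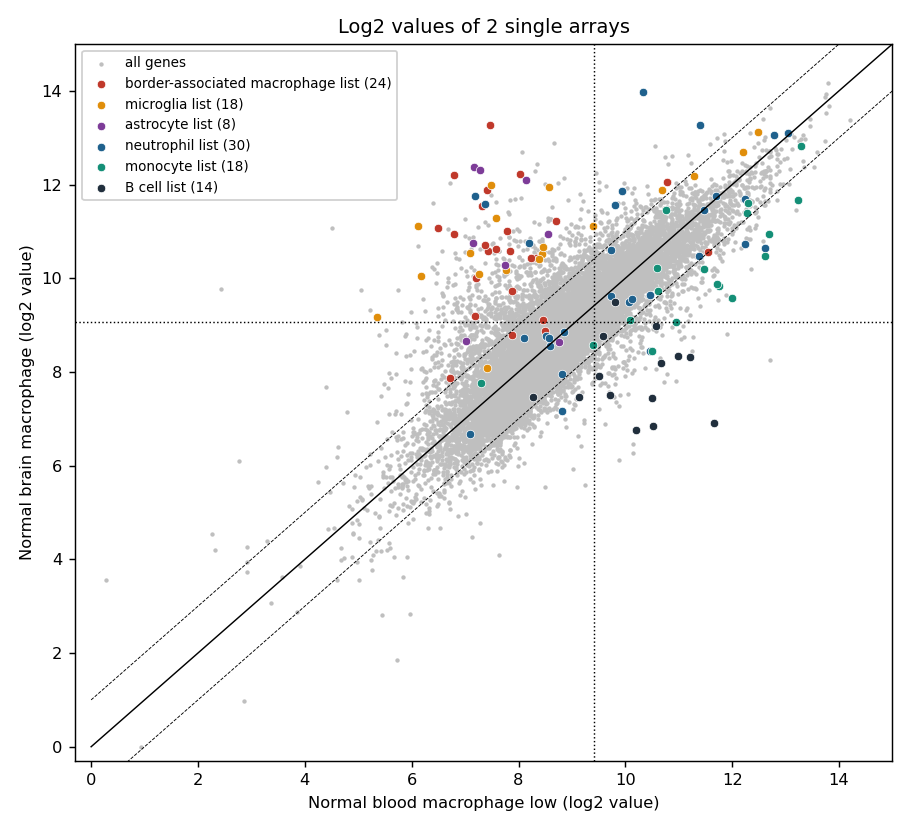
Log2 level of each gene in normal brain macrophages (vertical axis) against normal blood macrophage low cells (horizontal axis), gray points for all genes and colored points for 6 marker lists, with dotted lines at the background of each array, a solid line of equality and dashed lines at 2-fold. Border-associated macrophage and microglia markers lie mostly above the upper dashed line and left of the blood background of 9.41, whereas B cell markers lie mostly below the lower line and under the brain background of 9.07.

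Genes of other brain cells were among the most different genes. Of 8 measured astrocyte markers, 7 were higher by 2-fold or more in brain MP and 0 lower (median 3.07, or 1.44 with dim values raised to background), and 6 lay above background in brain MP against 0 in blood macrophage low cells, where Aqp4 and Gfap were below background on both arrays. Their summed linear signal was 20475.6 in brain MP and 1874.2 in blood macrophage low cells. Slc1a2, the main glutamate transporter of astrocytes, was at a log2 level of 12.37 and 7.16, at least 7.79-fold higher, and Sparcl1, a secreted matrix protein, at 12.31 and 7.27, at least 7.44-fold higher. Oligodendrocyte markers were mixed, with 2 of 8 higher by 2-fold or more and 1 lower (median 0.29), 4 above background in brain MP and 1 in blood cells, and a summed signal of 13327.3 and 2811.3. Mbp, the myelin basic protein, was at 12.70 and 8.07, at least 9.76-fold higher, and Mobp, another myelin protein, at 12.04 and 6.73, at least 6.20-fold higher. The myelin genes Mog, Mag and Opalin, the last of which was the lower one, were below background on both arrays. Of 9 neuron markers, 3 were higher by 2-fold or more and 0 lower (median 0.15), and 6 lay above background in brain MP against 2 in blood cells. Snap25, a synaptic vesicle fusion protein, was at least 2.29-fold higher, whereas Gad1, which makes the transmitter GABA, was at 9.32 and 9.60. The normal MG array held Slc1a2 at 12.31 and Mbp at 12.60, close to the brain MP array. The astrocyte list and single myelin and synaptic genes thus lay on the brain side of the comparison, and the part of other brain cells in the remaining differences was not tested.

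Neutrophil genes went both ways, and most differed by less than 2-fold. Of 30 measured markers, 7 were higher in brain MP by 2-fold or more and 4 lower, with 19 within 2-fold and a median of -0.00, and 21 lay above background in brain MP and 19 in blood macrophage low cells. Their summed signal was 83298.8 in brain MP and 61379.1 in blood macrophage low cells. Among the 7 were genes of the secondary granules, which neutrophils fill as they mature in the marrow. Ngp, a granule protein, was at a log2 level of 13.97 and 10.32, 12.5-fold higher with both arrays above background. Ltf, lactoferrin, was at 11.76 and 7.18, at least 5.11-fold higher, and Camp, the cathelicidin precursor, at 11.58 and 7.38, at least 4.49-fold higher. Ltf and Camp were below background in blood macrophage low cells. Ly6g, the antigen of mouse neutrophils that Gr1 antibodies bind, was at least 2.54-fold higher, Cd177, a surface glycoprotein, 3.79-fold higher, and Lcn2, which binds bacterial siderophores, 3.65-fold higher at 13.27 and 11.41.

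The lower neutrophil genes above background were receptors. The chemokine receptor Cxcr2, which draws neutrophils out of the marrow, was at a log2 level of 10.65 in brain MP and 12.62 in blood macrophage low cells, 3.94-fold lower. Csf3r, the receptor for granulocyte colony-stimulating factor, was at 10.74 and 12.25, 2.85-fold lower, and Trem1, an amplifier of inflammatory signals, was at 8.45 and 10.47, at least 2.64-fold lower. The cytoplasmic calprotectin subunits hardly differed, with S100a8 at 13.05 and 12.78 and S100a9 at 13.11 and 13.04. Mmp8, a collagenase of the secondary granules, was at 11.76 and 11.69, so not every gene of these granules differed. The azurophil granule genes Mpo, Elane, Prtn3 and Ctsg, which promyelocytes make, were below background on both arrays. Transcripts of neutrophils thus reached high levels on both arrays that the labels call macrophages, and the part of neutrophils in the other differences was not tested. Retnlg and Mmp9, which mature neutrophils express, had log2 differences of -0.81 and -0.54, within 2-fold. No list of stages was fixed, and the roles named here were set beside the genes after their values were seen.

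Monocyte genes that differed were lower in brain MP. Of 18 measured markers, 9 were at least 2-fold lower and 0 higher, with a median of -1.13, and 14 lay above background in brain MP against 16 in blood macrophage low cells. The genes with the largest differences are known from patrolling monocytes, a grouping made after the values were seen. Treml4, a receptor that binds dying cells, was at a log2 level of 9.58 in brain MP and 11.99 in blood macrophage low cells, 5.30-fold lower. Ace, the angiotensin-converting enzyme, was at 10.47 and 12.62, 4.45-fold lower, and Cd300e, an activating receptor, at 8.45 and 10.50, at least 2.70-fold lower. Spn, which encodes the sialomucin CD43, was 3.75-fold lower and Adgre4, an adhesion receptor, 3.59-fold. Itgal, the alpha chain of the integrin LFA-1, was 3.35-fold lower. Nr4a1, the transcription factor that patrolling monocytes depend on, was at 11.67 and 13.24, 2.96-fold lower. It also stands in the list of immediate early genes below, which handling of cells can induce. Some genes of classical monocytes were within 2-fold. Ccr2, the chemokine receptor that brings classical monocytes out of the marrow, was at 11.47 and 10.77, 1.62-fold higher in brain MP. Lyz2, lysozyme, was at 12.83 and 13.28, and Plac8 was 2.43-fold lower. Vcan, a proteoglycan of classical monocytes, was below background on both arrays.

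**Figure D2:**
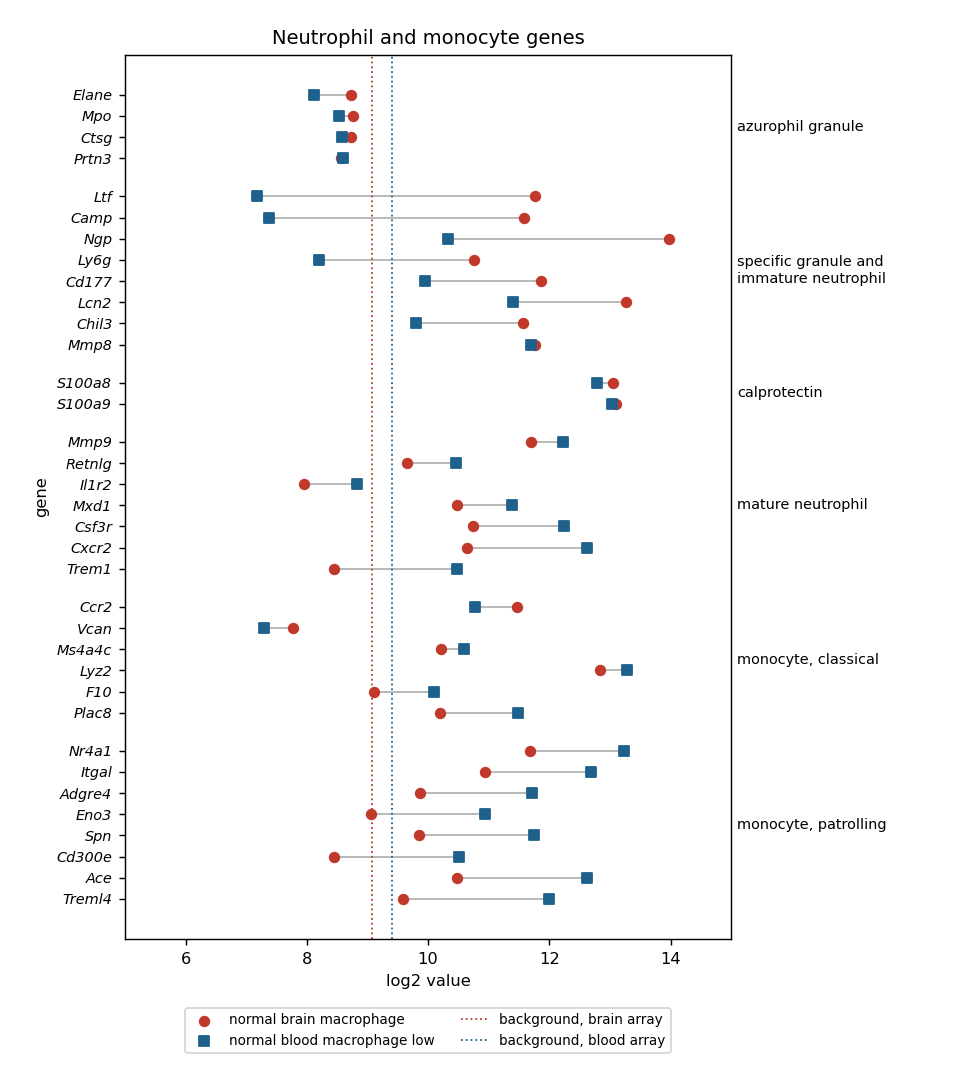
Log2 level (horizontal axis) of 35 neutrophil and monocyte genes, grouped by known roles after their values were seen, in normal brain macrophages (red circles) and normal blood macrophage low cells (blue squares), 1 array each, with dotted lines at the background of each array. Among neutrophil genes Ltf, Camp and Ngp extend to the right in brain macrophages and Cxcr2, Csf3r and Trem1 in blood cells, whereas all 8 patrolling monocyte genes are higher in blood cells.

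B cell genes and some erythroid genes were on the blood side. Of 14 measured B cell markers, 11 were at least 2-fold lower in brain MP and 0 higher (median -2.35, or -1.28 with dim values raised to background), and 12 lay above background in blood macrophage low cells against 1 in brain MP, with a summed signal of 18950.7 against 3890.6. Cd79a, the signalling chain of the B cell receptor, was at a log2 level of 6.91 in brain MP and 11.66 in blood macrophage low cells, at least 6.00-fold lower. The B cell transcription factor Pax5 was at 8.31 and 11.21, at least 4.40-fold lower, and Ms4a1, which encodes CD20, was at least 2.73-fold lower. Cd79a, Pax5 and Ms4a1 were thus clear of background in the blood sort and below it in brain MP. Ighm, the heavy chain of IgM, was above background on both arrays at 10.65 and 12.17, 2.86-fold lower in brain MP, and was named after its value was seen. T cell and NK cell markers showed no such split. None of 15 T cell markers was 2-fold apart, and of 20 NK markers 1 lay above background in blood macrophage low cells and 3 in brain MP.

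Of 6 erythroid markers, 3 were at least 2-fold lower in brain MP, 2 lay above background in blood macrophage low cells and 1 in brain MP, with a summed signal of 10445.3 against 1940.9. Alas2, which starts heme synthesis in red cell precursors, was at a log2 level of 8.25 in brain MP and 12.71 in blood macrophage low cells, at least 12.4-fold lower, and Slc4a1, the anion exchanger of red cells, at least 3.70-fold. Klf1, Epb42, Rhag and Ermap were not above background in the blood cells. Bpgm, an enzyme of red cell glycolysis, was at 8.81 and 11.90, at least 7.09-fold lower. A pair of platelet chemokines parted, with Ppbp at least 3.15-fold lower in brain MP and Pf4 at least 2.03-fold higher, where Pf4 is also made by border-associated macrophages. The part of B cells, red cells and platelets in the remaining differences was not tested.

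Promoters of 6 of these genes are shown, since together they stand for the border-associated macrophage, neutrophil, monocyte, B cell and erythroid groups. Lyve1 had no entry. Cd79a and Alas2 followed the naming rule as the lowest ranked genes. Mrc1, Cd163, Ltf and Treml4 were picked after their values were seen, in place of Luzp2 and Cttnbp2nl, the highest ranked genes. Each sequence holds the 250 bases before the start of the gene, 5′ to 3′ in the direction of the gene, from RefSeq on GRCm38.p6. Their positions were chr2:14229164-14229413 for Mrc1, chr6:124304401-124304650 for Cd163, chr9:111019042-111019291 for Ltf, chr7:24897247-24897496 for Cd79a, chrX:150547167-150547416 for Alas2 and chr17:48264045-48264294 for Treml4. Capitals mark matches, on either strand, to GGAAGT (a core of ETS factor sites such as those of PU.1), TTGCNNAA (a core of C/EBP sites) or AGATAA (a core of GATA sites). The plan held the ETS and C/EBP cores, and the GATA core was added to it later.
Mrc1: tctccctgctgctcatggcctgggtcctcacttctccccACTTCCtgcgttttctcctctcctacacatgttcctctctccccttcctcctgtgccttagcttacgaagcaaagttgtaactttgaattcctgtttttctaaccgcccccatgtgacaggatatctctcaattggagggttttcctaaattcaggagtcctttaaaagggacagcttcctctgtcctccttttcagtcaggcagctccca
Cd163: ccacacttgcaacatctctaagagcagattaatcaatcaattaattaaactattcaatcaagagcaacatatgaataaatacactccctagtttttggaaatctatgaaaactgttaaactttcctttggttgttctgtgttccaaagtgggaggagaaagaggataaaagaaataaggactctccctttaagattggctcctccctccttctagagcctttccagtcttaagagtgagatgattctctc
Ltf: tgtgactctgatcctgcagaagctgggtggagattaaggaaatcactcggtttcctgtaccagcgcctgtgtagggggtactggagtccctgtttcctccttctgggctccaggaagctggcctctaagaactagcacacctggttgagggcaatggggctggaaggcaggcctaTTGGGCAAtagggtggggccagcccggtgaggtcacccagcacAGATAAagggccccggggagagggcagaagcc
Cd79a: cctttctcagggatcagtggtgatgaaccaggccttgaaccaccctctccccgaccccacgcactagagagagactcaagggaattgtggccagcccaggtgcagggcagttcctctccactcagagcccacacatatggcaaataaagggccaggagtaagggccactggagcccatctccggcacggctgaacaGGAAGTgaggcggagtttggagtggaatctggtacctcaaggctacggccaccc
Alas2: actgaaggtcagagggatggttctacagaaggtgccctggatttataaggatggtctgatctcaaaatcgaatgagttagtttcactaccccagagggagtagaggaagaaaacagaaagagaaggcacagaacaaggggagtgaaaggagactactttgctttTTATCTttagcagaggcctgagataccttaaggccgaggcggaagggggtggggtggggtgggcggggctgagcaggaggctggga
Treml4: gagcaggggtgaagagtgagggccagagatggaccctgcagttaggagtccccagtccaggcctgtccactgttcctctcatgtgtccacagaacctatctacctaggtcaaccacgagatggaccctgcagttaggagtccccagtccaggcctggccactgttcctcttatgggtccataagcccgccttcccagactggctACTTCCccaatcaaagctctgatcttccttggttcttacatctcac

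With the base before the start counted as -1, the ETS core lay at -211 to -206 in Mrc1, at -54 to -49 in Cd79a and at -46 to -41 in Treml4. The promoter of Ltf held the C/EBP core at -75 to -68 and the GATA core at -32 to -27, and that of Alas2 the GATA core at -86 to -81. Cd163 held none of these letters in this window. Among all 15614 measured genes with an entry, 23.5% held the ETS core, 10.0% the C/EBP core and 9.94% the GATA core. The ETS core stood in 24.2% of 698 promoters of genes higher in brain MP and in 32.1% of 240 promoters of genes lower in brain MP, beside 27.4% of 6236 genes above background. For the C/EBP core the shares were 10.0% and 14.2% beside 9.62%, and for the GATA core 7.45% and 12.5% beside 7.70%. A match describes letters and no bound factor, and no share was tested.

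Several genes of apoptotic cell uptake were higher in brain MP. Of 16 measured, 8 were at least 2-fold higher and 1 lower, with a median log2 difference of 1.25 (0.58 with dim values raised to background), and the lower one, Havcr1, was below background on both arrays. Mertk, a receptor kinase that recognizes dying cells through bridging proteins, was at a log2 level of 11.05 in brain MP and 6.69 in blood macrophage low cells, at least 3.10-fold higher. Axl, its relative, was at 12.25 and 9.45, 6.97-fold higher. The bridging proteins themselves were at least 2.47-fold higher for Gas6 and at least 2.37-fold for Pros1. Itgb5, an integrin chain that binds bridged cells, was 3.23-fold higher, and Dock1, an activator of engulfment, at least 1.66-fold. Mertk, Axl, Gas6 and Pros1 were therefore higher on the same array. The list did not move as a whole. Tyro3, a further receptor of the family, was above background on both arrays at 9.21 and 9.50, 1.23-fold lower in brain MP. Mfge8, another bridging protein, was at least 1.34-fold higher. Stab1, Gas6 and Timd4, which are among the 8 higher genes, also stand in the border-associated macrophage list.

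Complement and lysosomal genes differed in part. The 3 chains of C1q, which tags debris and synapses, were among the largest differences, with C1qc at a log2 level of 12.88 in brain MP and 8.67 in blood macrophage low cells, at least 11.1-fold higher. C1qb was at least 8.11-fold higher and C1qa at least 7.30-fold. The receptor C3ar1 was at least 6.02-fold higher and below background in the blood cells. The 17 complement genes had 5 members higher by 2-fold or more, 1 lower and a median of 0.04. C5ar1 and Cfp (properdin) were above background on both arrays and hardly differed, at 11.03 and 10.99 and at 11.08 and 10.90. Of 17 lysosomal proteases and inhibitors, 6 were at least 2-fold higher and 1 lower (median 0.51). Lgmn, an asparaginyl endopeptidase, was at 12.82 and 10.55, 4.82-fold higher, and the cathepsins Ctsd and Ctsl were 3.32-fold and at least 4.29-fold higher. Ctss and Ctsb, at 12.80 and 12.40 and at 12.47 and 12.18, were high on both.

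Genes of MHC class II presentation, a list that also holds costimulatory genes and a protease, were higher in brain MP where they differed. Of 12 measured, 6 were at least 2-fold higher and 0 lower (median 1.01, or 0.51 with dim values raised to background), and of 12 class I genes 0 were 2-fold apart (median -0.10). H2-Aa, a class II alpha chain, was at a log2 level of 11.71 in blood macrophage low cells and 2.45-fold higher in brain MP. H2-Ab1 and H2-Eb1 were 2.43-fold and 2.34-fold higher, and H2-DMa, which loads peptides, 2.68-fold. Normal MG had H2-Aa at 7.20, below background. B cells also carry class II genes, and their markers were on the blood side. The part of B cells in the class II levels of either array was not tested. Cd209a, a lectin of monocyte-derived dendritic cells and some border macrophages, was at 10.94 and 8.59, at least 2.89-fold higher in brain MP.

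Sensors and Fc receptors split within their families. Cd14, the co-receptor for lipopolysaccharide, was at least 2.66-fold higher in brain MP at log2 levels of 10.82 and 7.92, and Tlr4 at least 1.36-fold, whereas Myd88, the adaptor downstream, was 2.06-fold lower. Tlr7, Tlr9 and Cd180 were above background on both arrays and less than 2-fold apart. Of the toll-like receptor list, 5 of 15 were at least 2-fold higher and 1 lower (median 0.57, or -0.08 with dim values raised to background). Among Fc receptors, Fcgr1 was 2.52-fold higher in brain MP and the inhibitory Fcgr2b 2.19-fold higher. Fcgr4, an activating receptor of patrolling monocytes and neutrophils, was at 9.64 and 11.88, 4.73-fold lower. Fcrls, an MG gene of this family, was at 11.11 and 6.11, at least 3.26-fold higher.

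Single genes of inflammation and trafficking differed in both directions. The cytokine Il1b was at a log2 level of 10.20 in brain MP and 12.34 in blood macrophage low cells, 4.43-fold lower, and its antagonist Il1rn at least 1.93-fold lower. Of 19 genes of cytokines and the inflammasome, 1 was at least 2-fold higher and 2 lower (median -0.39), beside 6.16% and 3.5% of all genes. The 1 higher gene was not above background in brain MP, so the list as a whole gives no result. Tnf, at 9.18 and 9.83, was 1.57-fold lower. S1pr5, a receptor for sphingosine-1-phosphate that patrolling monocytes use to leave the marrow, was at 8.44 and 11.25, at least 4.54-fold lower. Of 17 chemokine receptors, 0 were at least 2-fold higher and 4 lower (median -0.20), of which Ccr3 and Cxcr5 were below background on both arrays. Of 22 chemokines, 7 were at least 2-fold higher and 2 lower (median 0.53), but for 4 of the 7 neither array was above background. The 9 chemokines above background on 1 or both arrays had 3 higher, 2 lower and a median of 0.04. Cxcl16, a membrane-bound chemokine and scavenger of oxidized lipid, was at 11.20 and 7.37, at least 3.46-fold higher, and Ccl3 at least 2.09-fold. Interferon-stimulated genes showed no common direction, with 3 of 19 at least 2-fold higher and 2 lower (median -0.10), and Rsad2, an antiviral enzyme, 3.14-fold lower at 9.37 and 11.02.

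Single transcription factors of blood lineages differed in both directions. Of 30 measured, 4 were at least 2-fold higher and 6 lower (median -0.12), 8 were below background on both arrays, and Pax5 and Ebf1 of B cells were 2 of the 6. Spi1, which encodes PU.1 of the myeloid lineage, was at log2 levels of 11.16 in brain MP and 11.53 in blood macrophage low cells, and Irf8 at 10.38 and 9.81. Besides Maf and Sall1, Bhlhe41 was 2.07-fold higher in brain MP. Cebpb, which patrolling monocytes need, was 2.63-fold lower at 10.86 and 12.26, and Klf2, a factor of quiescent circulating cells, 2.32-fold lower at 11.05 and 12.27. Pparg, a lipid-sensing nuclear receptor, was at 9.53 and 11.74, 4.62-fold lower. Its target Fabp4 was at least 1.47-fold lower. Abca1, which exports cholesterol, was at 11.79 and 9.15, at least 5.19-fold higher in brain MP, and Trem2, a lipid receptor of MG, at least 1.71-fold. Of 17 genes of lipid handling, 4 were at least 2-fold higher and 2 lower (median 0.46, or 0.01 with dim values raised to background).

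**Figure D3:**
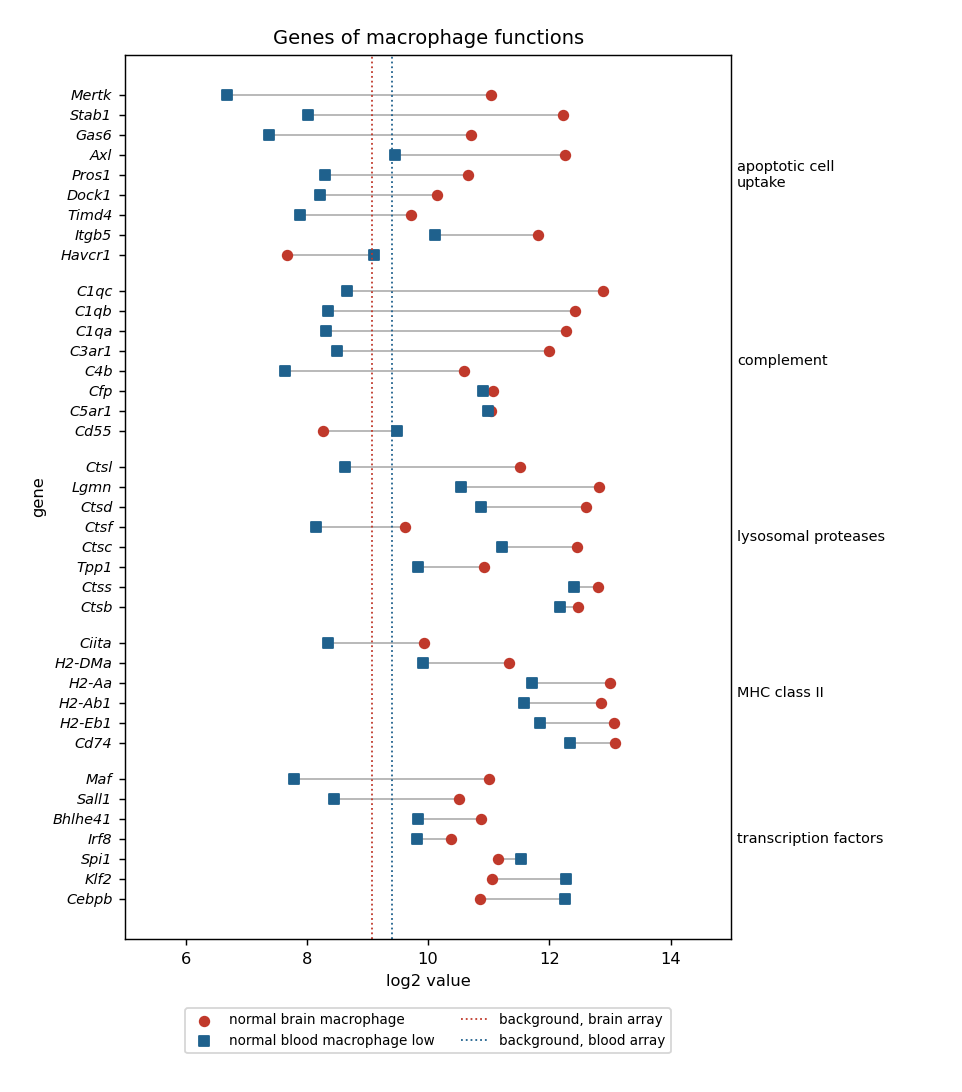
Log2 level (horizontal axis) of 38 genes of uptake, complement, lysosome, MHC class II and transcription in normal brain macrophages (red circles) and normal blood macrophage low cells (blue squares), 1 array each, with dotted lines at the background of each array. Mertk, Axl, Gas6 and the 3 C1q chains are far to the right in brain macrophages, whereas C5ar1, Ctsb and Ctss nearly coincide and Klf2 and Cebpb are higher in blood cells.

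Cell division genes were near background on both arrays. Of 17 measured, 8 were at least 2-fold higher and 0 lower (median 0.95), 5 of the 8 were above background in brain MP, and 1 of the 17 lay above background in blood macrophage low cells. With dim values raised to background the median was -0.30, and no member reached 2-fold. Mki67, which encodes the proliferation antigen Ki-67, was at log2 levels of 9.87 in brain MP and 8.21 in blood macrophage low cells, at least 1.37-fold higher. Top2a, a topoisomerase of dividing cells, was at least 1.65-fold higher, while its other probe set had a log2 difference of -0.12. Of 20 immediate early genes, which handling of cells can induce, 4 were at least 2-fold higher and 2 lower (median -0.03). Egr1 was at least 3.22-fold higher in brain MP at 11.10 and 9.20, and Jun 2.23-fold higher, whereas Fos was at 11.35 and 11.28. Nr4a1, given above with the monocyte genes, was the lowest member of this list, 2.96-fold lower with both arrays above background. Differences in dissociation between brain and blood go with the tissue and cannot be told apart from it.

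**Figure D4:**
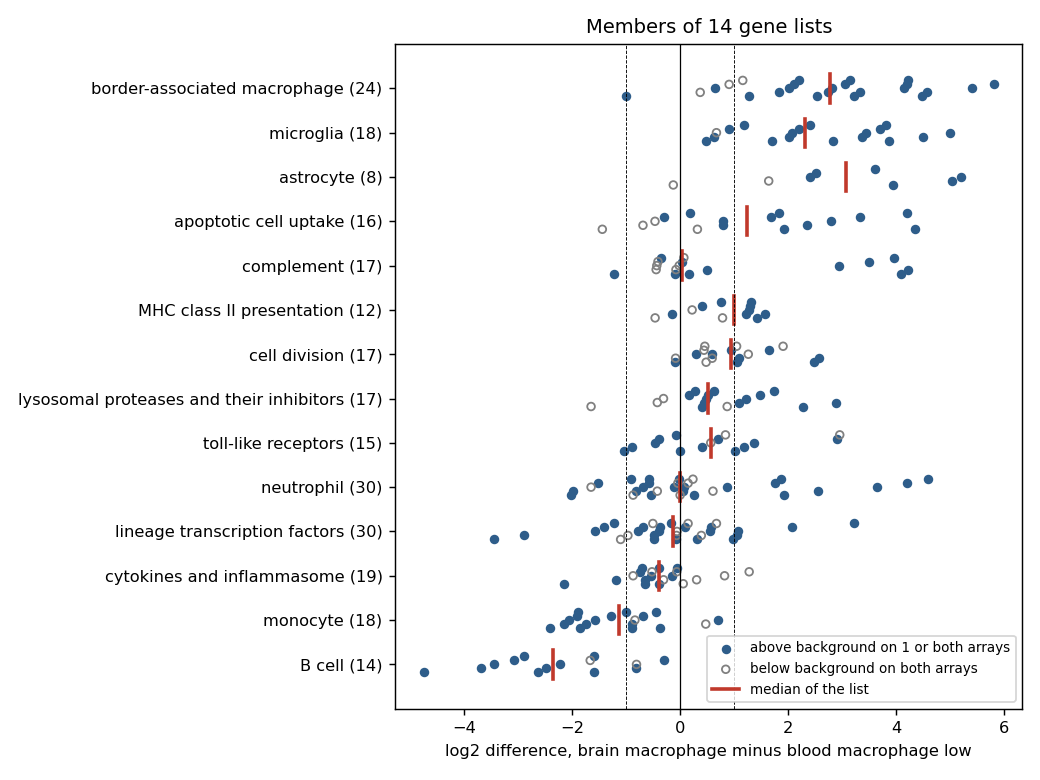
Log2 difference, brain macrophage minus blood macrophage low (horizontal axis), of each measured member of 14 gene lists, with the number measured in parentheses, a red bar at the median of the list and dashed lines at 2-fold. Open points were below background on both arrays. Border-associated macrophage, microglia and astrocyte medians were 2.77, 2.31 and 3.07, and monocyte and B cell medians -1.13 and -2.35.

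Levels on the other 10 arrays were set beside these values. Lyve1 and Cd163 were above background on the normal brain MP array alone among the 12. The same held for Ltf and Camp. Lyve1 was at a log2 level of 7.61 on tumor brain MP and at 6.45 to 8.39 on the 11 arrays other than normal brain MP. Ngp was at 12.32 on blood Gr1+ cells of tumor-bearing mice and 11.56 on their blood macrophage high cells, below the 13.97 of normal brain MP. Of the 869 genes higher in brain MP, 62.1% lay above background on normal MG, beside 65.8% of the 7751, and 31.1% on the blood macrophage high array of tumor-bearing mice, beside 77.6%. Of the 316 lower genes, 92.1% lay above background on that blood array and 20.9% on normal MG. The share of the higher genes on normal MG was near that of all 7751, whereas their share on the blood macrophage high array was below it. Both gene sets were chosen by their levels on the compared arrays, and normal blood macrophage low had levels close to those of that blood array. The shares on it therefore depend in part on this choice, and the 7751 are no neutral base for them. Arrays labelled blood were not alike in this. The highest share of the 869 was on blood Gr1- cells of tumor-bearing mice, 70.5% beside 85.1% of the 7751. That array also had a Pearson's r of 0.920 with brain MP, and 17 of 18 MG markers lay above background there.

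Blood macrophage low cells of normal mice resembled the high sort of tumor-bearing mice more than the low sort. Pearson's r over the log2 levels of 19938 genes was 0.915 with tumor blood macrophage high, 0.832 with tumor blood macrophage low and 0.690 with normal blood macrophage high cells, as a description of single arrays. Cxcr2 was at a log2 level of 12.62 on normal blood macrophage low and 13.43 on tumor blood macrophage high, but at 5.89 on tumor blood macrophage low. Treml4 was at 11.99, 11.39 and 7.77 on these arrays, and Ace at 12.62, 12.13 and 7.53. NK markers were above background for 1 of 20 on normal blood macrophage low, 2 on tumor blood macrophage high, 20 on tumor blood macrophage low and 14 on normal blood macrophage high. The names high and low thus carried crossed marker profiles in normal and tumor-bearing mice, and the comparison above stands for the array labelled Normal Blood Macrophage Low. The normal blood macrophage high array had the highest background, 10.09, and 2.19% of the 869 genes higher in brain MP were above background there, beside 27.2% of the 7751. That share also depends in part on how the 869 genes were chosen.

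**Figure D5:**
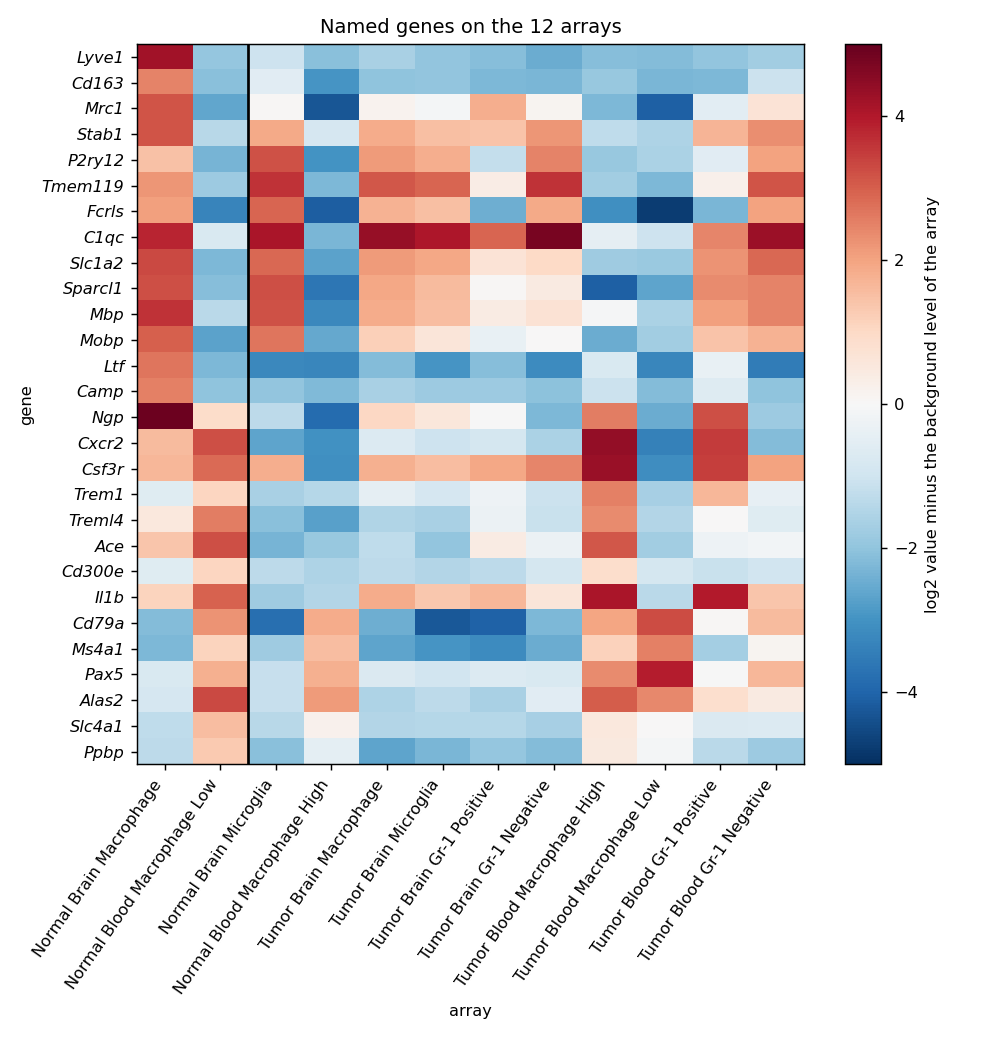
Log2 level minus the background level of the array (color scale, log2 units) for 28 named genes (vertical axis) on the 12 arrays (horizontal axis), with the compared arrays left of the black line. Lyve1, Cd163, Ltf and Camp are above background on normal brain macrophages alone, and Cxcr2, Treml4 and Ace are high on both normal blood macrophage low and tumor blood macrophage high.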

How the data were processed

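RNA of flow-sorted cells was amplified in 2 cycles and hybridized by the authors, and probe intensities were summarized in Expression Console. The submitters' processing notes name RMA, and the annotation release and genome build are not given in the sources used here. The deposited values are log2 signals, used as deposited. The 21789 of 28944 probe sets with 1 gene symbol were kept, and 5534 without a symbol and 1621 with several were dropped. For the 999 genes with several probe sets the brightest over all arrays was taken, which gave 19938 genes. The methods name adjusted p-values, which 2 single arrays cannot give, so differences of at least 2-fold were counted with no test. The comparison, the 37 gene lists and the rules were chosen with earlier results of these data known. Named genes were Lyve1, Cd163, Csf3r and P2ry12, the 10 with the largest difference each way whose brighter array was above background, and up to 6 members per list with the largest difference, plus any that went at least 2-fold against the median of their list. Further list members, and genes in no list, were named after their values were seen, to show members that did not differ. A gene of the study is not reported here. The computation was tested on simulated data. Alternatives tried were cyclic loess, quantile and median scaling, the mean of probe sets, only genes above background, dim values raised to background, other background percentiles and other fold thresholds. Computations ran in R 4.3.3 (limma 3.58.1) and Python 3.11.15 (matplotlib 3.10.9, numpy 2.4.6, pandas 2.3.3).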

Additional observations from a re-analysis of the deposited data

How the results depend on the processing

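Each population had 1 array, so values carry no error and no replicate could be left out. No paired analysis was possible because each population had 1 array. The size of a difference from a level below background is unknown beyond its bound. Of 146 named genes at least 2-fold apart, all 146 kept their direction under 3 other scalings and the mean of probe sets, and 142 stayed at least 2-fold apart under each, the exceptions being Ccl6, Itga4, Myd88 and Oas3. Most of these genes were named for a large difference. The 7 list medians of at least 1 on the log2 scale kept that size under these settings. With dim values raised to background, the medians of apoptotic cell uptake and MHC class II presentation fell under 1, as given above. The median of all genes moved from -0.19 to -0.11 with centring, -0.09 with quantile and -0.02 with cyclic loess normalization, which gave 410 lower genes in place of 697. Among genes above background 316 were lower, and the astrocyte median was 3.78. With dim values raised to background, 314 genes were higher and 221 lower, and the medians were 1.2 for border-associated macrophage, 1.05 for MG, -1.28 for B cell and 1.44 for astrocyte markers. Genes dim on both arrays then sit at the difference of the background levels, -0.34. Of 210 named genes, 96 moved by at least the SD of the olfactory receptor differences (0.39). In that setting 7 of the named genes at least 2-fold apart changed sign. Their differences became -0.25 for Gpr34, -0.25 for Klrd1, -0.14 for Kit, -0.14 for Msr1, -0.32 for Xaf1, -0.30 for Ccna2 and -0.12 for Plk1. The list counts of higher genes that hold them rest on values near background. At 1.5-fold, 2575 genes were higher and 2909 lower, or 1690 and 891 above background. At 4-fold, 318 were higher and 67 lower, or 277 and 48 above background.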

Other observations

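Some genes in no list above were among the most different. Luzp2, a leucine zipper gene of the nervous system, had the largest log2 difference, 7.34, from log2 levels of 9.78 in brain MP and 2.44 in blood macrophage low cells, but was at least 1.29-fold higher when set against background. Cttnbp2nl followed with 11.07 and 4.51, at least 3.16-fold higher. Mt1, a metallothionein that binds zinc, was at least 6.12-fold higher in brain MP, Ndrg2, a gene of astrocytes, at least 6.67-fold, and Ccnd1, cyclin D1, at least 3.66-fold at 11.28 and 8.56. Selenop, which carries selenium, was 4.17-fold higher with both arrays above background. On the other side, Il1f9, an interleukin-1 family cytokine, was 5.29-fold lower in brain MP at 9.56 and 11.96, and the lectin Clec4d at least 4.59-fold lower. All 8 measured Gimap genes, small GTPases of lymphocytes, were at least 2-fold lower in brain MP (median -1.56), with 3 above background in blood macrophage low cells and 0 in brain MP. Of 8 measured immunoglobulin kappa variable genes, whose near-identical copies can share probes, 6 were at least 2-fold lower (median -1.07) and 1 lay above background in the blood cells. These genes and families, apart from Luzp2 and Cttnbp2nl, were picked after their values were seen.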
